A study of Mus musculus with 18 samples.

Results

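Bone marrow-derived macrophages (BMDMs) lacking HDAC3 were compared with HDAC3f/f BMDMs after coculture with apoptotic cells (ACs), gene by gene and pathway by pathway. The comparison held 6 of the 18 libraries of the series, chosen by their titles, 3 labelled HDAC3 KO with ACs and 3 labelled WT with ACs. The study calls the control genotype HDAC3f/f, C57BL/6J mice that carry LoxP sites on both sides of exon 7 of Hdac3. The M-HDAC3-/- mice also carry LysM-Cre, a Cre gene placed in the Lyz2 locus and active in myeloid cells, so the controls share the floxed allele and lack the Cre. Marrow, from 3 animals per group, was grown into macrophages in medium conditioned by L929 cells. K562, a line of human leukemia cells, served as ACs after UVB irradiation for 15 min and a rest of 2 h. They were given to the macrophages for 45 min and washed off, and RNA was taken 5 h later. The other libraries came from the same genotypes with non-apoptotic K562 cells (NACs) or with no treatment, and served here for the tests of interaction and for side-by-side values.

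HDAC3 is the enzyme of the NCoR and SMRT corepressor complexes, which nuclear receptors and other factors bring to genes, where it removes acetyl groups from histones. In macrophages it is known as a regulator of inflammatory and lipid genes. Efferocytosis is the uptake of dying cells: the corpse is bound by receptors, drawn in by actin, passed to the lysosome and broken down by its acid hydrolases, and its cholesterol and fatty acids are then exported, stored or burned. The genes below were chosen outside the 25 efferocytosis genes of the study, and grouped in 66 lists, of which 59 are pathways or functions and 7 are gene families recognised by their symbols.

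The HDAC3-/- libraries were deeper than the HDAC3f/f libraries in every case, with 22664522, 21505343 and 18495507 counts against 9385094, 14929827 and 13316613. Replicates differed by more than counting error (chi-squared per degree of freedom 35.83 to 298.1 between pairs), and PC1, with 45% of the variance, placed HDAC3-/- replicate 2 (4.00) between the other HDAC3-/- libraries (69.5 and 64.9) and the HDAC3f/f libraries (-84.4 to -19.2). Hdac3 itself had 7.56, 41.7 and 30.5 CPM in HDAC3f/f and 40.0, 10.9 and 17.6 CPM in HDAC3-/- libraries, as counts per 1000000 (CPM, scaled by TMM factors). These levels overlapped, and the count of the whole gene includes exons outside the deleted one, so that it does not check the labels. Lyz2, which carries the Cre, had 5716, 3292 and 3283 CPM in HDAC3f/f and 6186, 11280 and 3989 CPM in HDAC3-/- libraries (adjusted p = 0.284). The macrophage identity of the cultures was seen in 12 of 12 macrophage markers at 1 CPM or more, whose summed level was 10320 to 12860 CPM in HDAC3f/f and 15560 to 17880 CPM in HDAC3-/- libraries. In bulk RNA, fewer cells of a type and less RNA per cell cannot be told apart.

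With ACs, HDAC3-/- BMDMs had higher levels of the chains of CD11c and its partner CD18 (Itgax and Itgb2), of lysosomal cathepsins and hydrolases (Ctsl, Ctss, Ctsk, Glb1, Acp5) and of matrix proteases (Mmp19, Plau), by 2.72- to 6.23-fold. The genes called lower included 8 histone H4 genes, the C-type lectin receptors Clec4e and Clec7a, 20 of 270 Zfp genes (7.41%) and 56 of 674 long noncoding genes (8.31%), against 2.96% of all genes. With an offset for gene length and GC content the shares were 7.04% and 11.1%, against 7.44% of all genes. Of 12304 genes tested with the quasi-likelihood test of edgeR, 461 (3.75%) were called at an adjusted p under 0.05, 97 higher (0.788%) and 364 lower (2.96%) in HDAC3-/- BMDMs. All 461 exceeded a log2 fold change of 1, the threshold of the study. The levels of the genotypes did not overlap at 3485 genes (28.3%), 1681 of them higher (13.7%) and 1804 lower (14.7%). The median log2 fold change over all genes tested was -0.01. The calls rested on HDAC3-/- replicate 1: without it no gene was called (1810 had an unadjusted p under 0.05), whereas without HDAC3-/- replicate 2 the test called 1693 genes, 737 of them higher, and 435 of the 461 were among them. The rules given with the processing chose 100 called genes to be named, and a few called genes named outside those rules were not counted here. Of the 100, 11 kept the call in 1 of the 6 fits that left out 1 library, the fit without HDAC3-/- replicate 2: Slc37a2, Myh9, Fcgr4, C1qc, Cpt1a, Sdha, Csf2rb, Tap2, Emilin2, Psmd2 and Stmn1. The DESeq2 Wald test, which the study used, called 1373 genes with the filter used here, 509 higher and 864 lower, and all 461 were among them. The study reported fewer genes for this comparison, and its filter was not given in the sources used here.

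**Figure D1:**
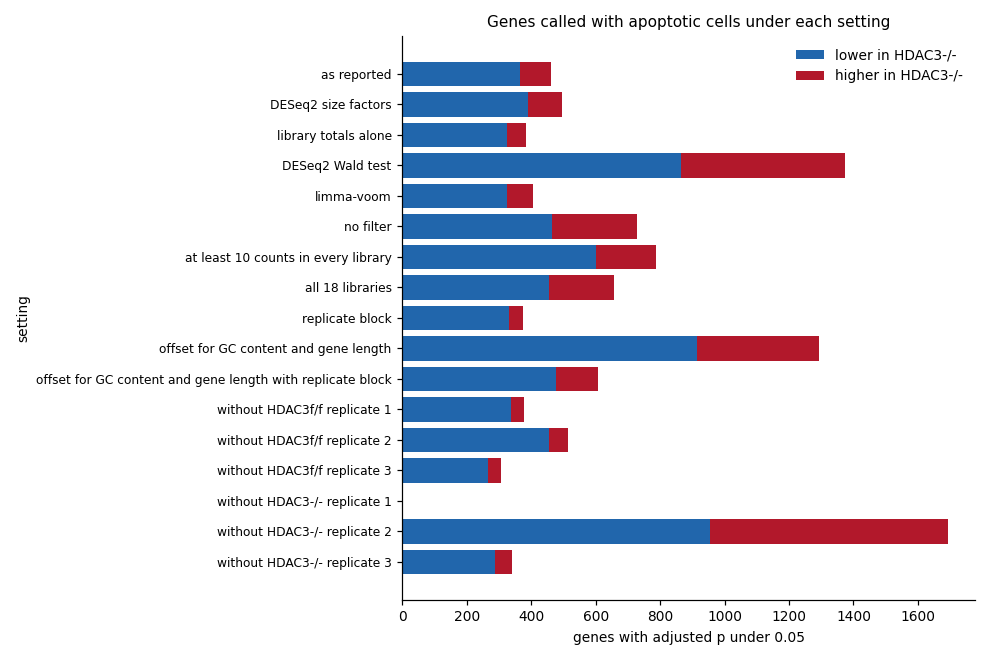
Number of genes with an adjusted p under 0.05 (x axis) under each setting (y axis), split into genes lower (blue) and higher (red) in HDAC3-/- BMDMs with ACs. The reported comparison gave 461 genes, leaving out HDAC3-/- replicate 1 gave 0 and leaving out HDAC3-/- replicate 2 gave 1693.

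Among called coding genes with separate groups and a mean of at least 5 CPM in the higher group, the 15 largest rises included Itgax, Mmp19, Ctsl, Mamdc2, Egr2 and Plau. Itgax, the integrin alpha chain known as CD11c, had 5.00, 9.46 and 14.5 CPM in HDAC3f/f and 51.6, 41.1 and 88.5 CPM in HDAC3-/- libraries, a 6.23-fold rise (log2 2.64 ± 0.48 (SE, n = 3 per group), adjusted p = 0.0153). Each HDAC3-/- library exceeded each HDAC3f/f library, which the rule for choosing the genes of this paragraph required. Mmp19, a matrix metalloproteinase, had 23.01, 14.8 and 18.7 CPM in HDAC3f/f and 73.2, 85.1 and 158 CPM in HDAC3-/- libraries (5.59-fold, log2 2.48 ± 0.44, adjusted p = 0.0153). Egr2, a zinc finger factor induced early after stimulation, had 7.45, 3.34 and 6.80 CPM in HDAC3f/f and 20.2, 29.6 and 26.7 CPM in HDAC3-/- libraries (4.37-fold, log2 2.13 ± 0.46, adjusted p = 0.024). At both Mmp19 and Egr2, HDAC3-/- replicate 1 was the lowest of its group. Plau, the urokinase plasminogen activator, had 55.0, 16.3 and 24.7 CPM in HDAC3f/f and 87.5, 184 and 145 CPM in HDAC3-/- libraries (4.34-fold, log2 2.12 ± 0.48, adjusted p = 0.0285). The cytoskeletal genes Gas7, Sept9 and Epb41l1 rose 3.96-, 3.78- and 3.65-fold, and the heparan sulfate proteoglycans Sdc1 and Gpc1 rose 3.84- and 4.10-fold. Mamdc2, Sbk1 and Bahd1, the last a chromatin-binding repressor, rose 4.39-, 3.77- and 3.74-fold.

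Promoter sequences are shown for Itgax, the largest rise among those genes at a mean of at least 5 CPM, and for the lysosomal enzymes Ctsl and Glb1, described next, because motifs known from macrophage and lysosomal genes lie in them. The sequences are RefSeq promoters on GRCm38.p6, 250 bases before to 50 after the annotated start, 5′ to 3′ on the gene's strand, and capitals mark the motif: TGANTCA (the AP-1 motif) in Itgax and CACGTG (the E-box, the core of the element through which TFEB is known to act on lysosomal genes) in Ctsl and Glb1. Itgax lies at chr7:128129300-128129599 on the plus strand, Ctsl at chr13:64370471-64370770 on the minus strand and Glb1 at chr9:114400828-114401127 on the plus strand.
Itgax: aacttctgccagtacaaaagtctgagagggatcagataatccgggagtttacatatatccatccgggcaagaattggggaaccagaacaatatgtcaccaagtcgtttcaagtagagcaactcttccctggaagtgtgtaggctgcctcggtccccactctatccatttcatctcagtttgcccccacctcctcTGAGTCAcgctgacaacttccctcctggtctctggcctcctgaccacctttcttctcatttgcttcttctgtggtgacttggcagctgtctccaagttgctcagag
Ctsl: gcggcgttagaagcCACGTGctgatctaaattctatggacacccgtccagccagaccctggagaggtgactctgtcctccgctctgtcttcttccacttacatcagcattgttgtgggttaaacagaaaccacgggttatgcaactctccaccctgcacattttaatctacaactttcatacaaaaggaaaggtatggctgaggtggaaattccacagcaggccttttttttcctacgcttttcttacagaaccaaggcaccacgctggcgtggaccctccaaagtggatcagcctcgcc
Glb1: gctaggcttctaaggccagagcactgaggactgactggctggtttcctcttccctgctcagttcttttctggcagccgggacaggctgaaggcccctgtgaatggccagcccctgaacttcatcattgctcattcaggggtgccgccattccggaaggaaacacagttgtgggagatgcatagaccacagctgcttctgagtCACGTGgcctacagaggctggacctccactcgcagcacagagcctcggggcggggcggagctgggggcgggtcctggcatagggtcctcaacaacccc
Both motifs read the same on either strand, and they do not overlap one another in these sequences. The motif starts at position -56 from the annotated start in Itgax, -236 in Ctsl and -48 in Glb1. For Ctsl this is the RefSeq start, and the whole window lies upstream of the gene as counted, which starts at 64370306 on the minus strand. The E-box was found in 2349 of all 32851 promoters (7.15%), in 1100 of the 9217 tested genes that have a promoter sequence (11.9%), and in 11 of the 36 cathepsin and hydrolase genes that have one (30.6%), of 45 tested. It was found in 7 of 68 genes called higher (10.3%) and 32 of 235 called lower (13.6%). The AP-1 motif was found in 2565 of all promoters (7.81%), 565 of the tested genes (6.13%), 10 of the 68 called higher (14.7%) and 8 of the 235 called lower (3.4%). These motifs were chosen after the values were seen, and a match is a description of the letters only.

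Lysosomal enzymes rose in each called case. Among cathepsins and legumain, the proteases of the lysosome, 3 of 13 tested genes rose (23.1%, against 0.788% of all genes), none fell, and the median log2 fold change was 0.85 (0.54 with an offset for gene length and GC content). Ctsl had 1766, 931 and 1259 CPM in HDAC3f/f and 3162, 9680 and 5376 CPM in HDAC3-/- libraries (4.61-fold, log2 2.20 ± 0.48, adjusted p = 0.024). Ctss, the cathepsin that trims the invariant chain of MHC class II, had 656, 424 and 708 CPM in HDAC3f/f and 2119, 3037 and 1825 CPM in HDAC3-/- libraries (3.90-fold, log2 1.97 ± 0.42, adjusted p = 0.024). Ctsk, a collagen-degrading cathepsin, had 24.8, 8.21 and 19.0 CPM in HDAC3f/f and 41.7, 67.0 and 60.3 CPM in HDAC3-/- libraries (3.26-fold, log2 1.70 ± 0.45, adjusted p = 0.045). For these 3 genes the lowest HDAC3-/- library was replicate 1 or, for Ctss, replicate 3, and it remained above every HDAC3f/f library. Of 32 lysosomal hydrolases, 3 rose (9.38%) and none fell, with a median of 0.80 and 25 fitted higher, and the genotypes did not overlap at 13 (40.6%, against 13.7% of all genes), each higher in HDAC3-/-. Glb1, the lysosomal beta-galactosidase, had 37.9, 35.2 and 26.8 CPM in HDAC3f/f and 104, 88.5 and 79.1 CPM in HDAC3-/- libraries (2.72-fold, log2 1.44 ± 0.39, adjusted p = 0.0472). Acp5, a tartrate-resistant acid phosphatase, had 21.7, 15.6 and 27.1 CPM in HDAC3f/f and 35.5, 77.0 and 100.4 CPM in HDAC3-/- libraries (3.31-fold, log2 1.73 ± 0.45, adjusted p = 0.0424). These rises were beyond the spread of the replicates, but the adjusted p of Ctsk, Glb1 and Acp5 lay close to the threshold and each was called in 2 of the 6 fits that left out 1 library. Ctsk and Acp5 are also markers of osteoclasts, and were themselves the 2 called, both higher, of 7 osteoclast markers tested (28.6%, against 0.788% of all genes). All 7 were fitted higher, and 5 were higher without overlap (71.4%, against 13.7% of all genes). These 5 included Ctsk and Acp5, beside Dcstamp, Nfatc1 and Tnfrsf11a, which were not called, while Mmp9 and Atp6v0d2 overlapped. The part of osteoclast-like cells in these rises was not tested. Without HDAC3-/- replicate 3 the median of the hydrolases was 0.52.

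The lysosomal membrane, its proton pump and the traffic that feeds it gave 3 calls. Of 17 subunits of the vacuolar ATPase, the pump that acidifies the lysosome, 1 fell (5.88%, against 2.96% of all genes), none rose, and the median was -0.03. Without overlap 6 were lower (35.3%, against 14.7% of all genes) and 2 higher, and the mean level of the list was lower in each HDAC3-/- library than in each HDAC3f/f library. With the GC and length offset 4 fell (23.5%, against 7.44% of all genes) and 2 rose (11.8%, against 3.07%). Without HDAC3-/- replicate 3, 3 fell (17.6%, against 2.26%). The 1 called as reported was Atp6v0d1, with 995, 1265 and 968 CPM in HDAC3f/f and 276, 261 and 546 CPM in HDAC3-/- libraries (2.98-fold lower, log2 -1.58 ± 0.43, adjusted p = 0.0472), and its groups were far apart. Of 18 lysosomal membrane and export genes, 1 rose (5.56%, against 0.788% of all genes), with a list median of 0.30. It was Slc37a2, a sugar phosphate transporter (2.79-fold). With the GC and length offset this call was lost (adjusted p = 0.0512), 3 genes of the list fell and the median was 0.11. Of 28 autophagy and TFEB family genes, 1 rose (3.57%, against 0.788% of all genes), with a list median of 0.01. It was Pik3r4, the regulatory subunit of the VPS34 lipid kinase (3.44-fold). None of 28 genes of early and late endosome traffic was called (median 0.21); Chmp4b, an ESCRT-III subunit, had 75.4, 119 and 109 CPM in HDAC3f/f and 202, 385 and 205 CPM in HDAC3-/- libraries (adjusted p = 0.0656).

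**Figure D2:**
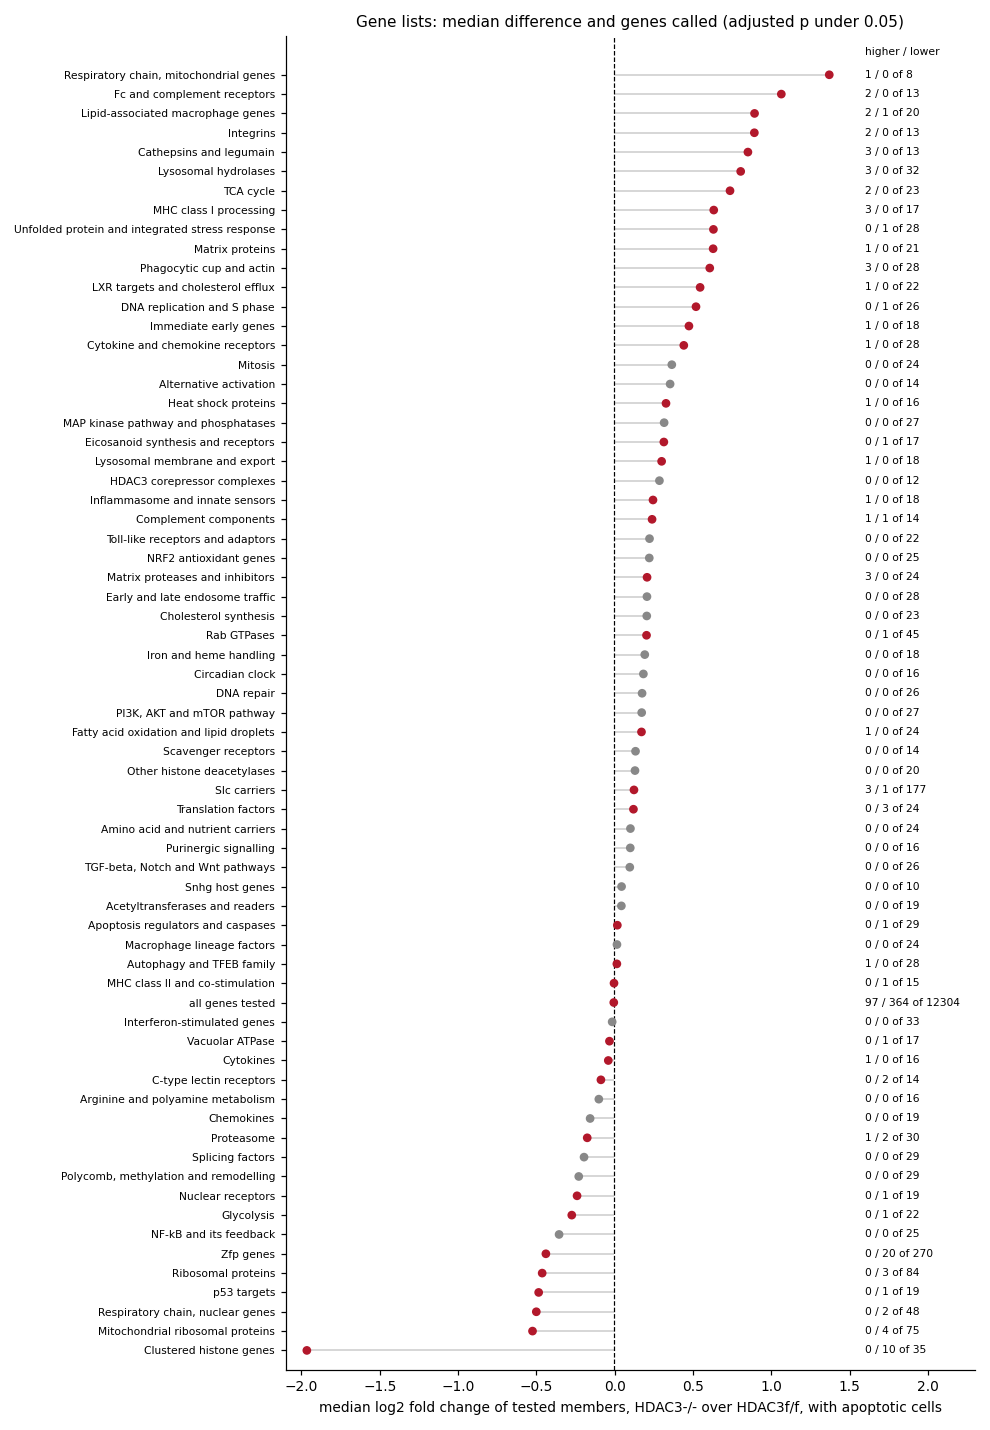
Median log2 fold change of the tested members of each gene list (x axis, HDAC3-/- over HDAC3f/f with ACs), with the genes called higher and lower of those tested at the right. Red marks lists with a called gene, grey those with none, and the dashed line marks the median of all genes, -0.01; clustered histone genes lie lowest at -1.96 and the mitochondrially encoded respiratory chain highest at 1.37.

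Uptake genes were grouped as receptors, integrins and genes of the phagocytic cup. Of 13 Fc and complement receptor genes, 2 rose (15.4%, against 0.788% of all genes), none fell, and the median was 1.06 (0.51 with the offset, and 0.67 and 0.69 without HDAC3-/- replicates 2 and 3). Itgb2, the beta chain that pairs with CD11c to form complement receptor 4, had 177, 156 and 186 CPM in HDAC3f/f and 683, 406 and 823 CPM in HDAC3-/- libraries (3.69-fold, log2 1.88 ± 0.42, adjusted p = 0.0256). Fcgr4, an activating receptor for IgG, had 49.4, 40.8 and 37.3 CPM in HDAC3f/f and 104, 119.9 and 136 CPM in HDAC3-/- libraries (2.82-fold, log2 1.496 ± 0.39, adjusted p = 0.0421). Of 13 integrins, Itgax and Itgb2 were the 2 called (15.4%) and the median was 0.89. Of 28 genes of the phagocytic cup, 3 rose (10.7%), none fell, and the median was 0.61. Of the same 28, 10 were higher without overlap (35.7%, against 13.7% of all genes) and 3 lower (10.7%, against 14.7%). Myo1e, a membrane-bound myosin of the cup, had 106, 97.7 and 103 CPM in HDAC3f/f and 393, 206 and 384 CPM in HDAC3-/- libraries (3.20-fold, log2 1.68 ± 0.41, adjusted p = 0.0337). Tln1, which links integrins to actin, had 126, 245 and 209 CPM in HDAC3f/f and 592, 311 and 1081 CPM in HDAC3-/- libraries (3.42-fold, log2 1.77 ± 0.47, adjusted p = 0.0459). Myh9, the heavy chain of nonmuscle myosin, had 237, 204 and 247 CPM in HDAC3f/f and 911, 373 and 712 CPM in HDAC3-/- libraries (2.90-fold, log2 1.54 ± 0.42, adjusted p = 0.0488). Replicate 2 was the lowest HDAC3-/- library for these 3 genes and still lay above every HDAC3f/f library.

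Complement and lectin genes moved in both directions. C1qc, a chain of C1q, which tags dying cells, had 836, 1178 and 906 CPM in HDAC3f/f and 2327, 3056 and 2785 CPM in HDAC3-/- libraries, a 2.80-fold rise (log2 1.48 ± 0.40, adjusted p = 0.0472). Cfd, complement factor D, was near the limit of detection, with 5.78, 2.504 and 2.47 CPM in HDAC3f/f and 0, 0.544 and 0.199 CPM in HDAC3-/- libraries (log2 -3.82 ± 0.91, adjusted p = 0.0315). C1qc and Cfd were the 2 called of 14 complement components, whose median was 0.24. The share was 7.14% in each direction, against 0.788% of all genes called higher and 2.96% called lower. Of 14 C-type lectin receptors, 2 fell (14.3%, against 2.96% of all genes) and none rose. Clec4e, the receptor Mincle that senses dead cells and mycobacterial lipid, had 326, 112 and 73.3 CPM in HDAC3f/f and 36.5, 22.9 and 10.4 CPM in HDAC3-/- libraries (7.30-fold lower, log2 -2.87 ± 0.59, adjusted p = 0.0247). Clec7a, the beta-glucan receptor Dectin-1, had 2106, 402 and 958 CPM in HDAC3f/f and 188, 229 and 202 CPM in HDAC3-/- libraries (5.61-fold lower, log2 -2.49 ± 0.52, adjusted p = 0.0214). HDAC3f/f replicate 1 was the highest library for both, and the remaining control libraries also exceeded all HDAC3-/- libraries. None of 14 scavenger receptors was called (median 0.13), and Msr1, the class A scavenger receptor, had 152, 53.3 and 67.1 CPM in HDAC3f/f and 27.3, 50.3 and 19.2 CPM in HDAC3-/- libraries (adjusted p = 0.0775).

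Among lipid genes, an exporter and a carnitine transferase rose and a prostaglandin synthase fell, each the 1 call of its list. The exporter was 4.55% of its list and the transferase 4.17%, against 0.788% of all genes called higher. The synthase was 5.88% of its list, against 2.96% of all genes called lower. Abcg1, the cholesterol exporter that LXR induces, had 68.2, 65.6 and 74.5 CPM in HDAC3f/f and 239.7, 205 and 212 CPM in HDAC3-/- libraries (3.15-fold, log2 1.66 ± 0.38, adjusted p = 0.0303), and was the 1 called of 22 LXR targets and efflux genes (median 0.54). The replicates of Abcg1 were close within each genotype. Cpt1a, which admits fatty acids to mitochondria for oxidation, had 52.8, 55.8 and 62.7 CPM in HDAC3f/f and 262, 89.4 and 186 CPM in HDAC3-/- libraries (3.13-fold, log2 1.65 ± 0.43, adjusted p = 0.0445), and was the 1 called of 24 genes of fatty acid oxidation and lipid droplets (median 0.17). Of 20 genes of lipid-associated macrophages, 2 rose (Itgax and Ctsl, 10%) and 1 fell (Clec7a, 5%), against 0.788% and 2.96% of all genes. The median was 0.89 and 16 were fitted higher, beside 6116 of all 12304 genes. None of 23 cholesterol synthesis genes was called (median 0.20). Sqle had 16.4, 7.93 and 10.6 CPM in HDAC3f/f and 32.2, 22.9 and 24.9 CPM in HDAC3-/- libraries (adjusted p = 0.104), and Tm7sf2 had 63.8, 43.3 and 41.9 CPM in HDAC3f/f and 10.7, 14.8 and 31.9 CPM in HDAC3-/- libraries (adjusted p = 0.0839). Ptges2, a prostaglandin E synthase, was the 1 called of 17 eicosanoid genes and fell 5.13-fold, from 122, 171 and 168 CPM to 21.4, 21.5 and 47.1 CPM (log2 -2.36 ± 0.44, adjusted p = 0.0153).

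Energy genes were grouped by pathway and by the genome that encodes them. The succinate dehydrogenase subunits Sdhd and Sdha were the 2 called of 23 genes of the TCA cycle, both higher (8.7%, against 0.788% of all genes called higher), and the median of the cycle was 0.74 (0.30 with the offset for gene length and GC, 0.45 without HDAC3-/- replicate 3). Sdhd had 33.8, 29.3 and 29.1 CPM in HDAC3f/f and 75.9, 117 and 84.5 CPM in HDAC3-/- libraries (3.02-fold, log2 1.59 ± 0.39, adjusted p = 0.0346), and Sdha had 77.7, 67.6 and 69.9 CPM in HDAC3f/f and 225, 146 and 226 CPM in HDAC3-/- libraries (2.78-fold, log2 1.47 ± 0.39, adjusted p = 0.0452). The mitochondrially encoded respiratory chain was tested at 8 of 13 genes, all fitted higher with a median of 1.37, and 1 was called (12.5%, against 0.788% of all genes called higher): mt-Nd4, a subunit of complex I, had 136, 118 and 100.1 CPM in HDAC3f/f and 479, 430.5 and 238 CPM in HDAC3-/- libraries (3.24-fold, log2 1.70 ± 0.41, adjusted p = 0.0337). With an offset for gene length and GC content the median was 2.89 and 7 of the 8 were called. Mitochondrial genes took 0.480%, 0.353% and 0.341% of all counts in the HDAC3f/f libraries and 1.19%, 0.494% and 0.689% in the HDAC3-/- libraries. Of 48 nuclear genes of the same chain, 2 fell (4.17%, a share near the 2.96% of all genes) and none rose. The median was -0.50, 33 were fitted lower and the mean level of the list overlapped between the genotypes. Without overlap 17 were lower (35.4%, against 14.7% of all genes) and 4 higher (8.33%, against 13.7%). With the offset 6 rose (12.5%, against 3.07% of all genes) and 9 fell (18.8%, against 7.44%), with a median of -0.29. Cox5b, a subunit of cytochrome c oxidase, had 703, 703 and 593 CPM in HDAC3f/f and 152, 215 and 272 CPM in HDAC3-/- libraries (3.13-fold lower, log2 -1.65 ± 0.40, adjusted p = 0.0345). Atp5l, a subunit of ATP synthase, had 952, 258 and 352 CPM in HDAC3f/f and 90.3, 207 and 106 CPM in HDAC3-/- libraries (3.88-fold lower, log2 -1.95 ± 0.51, adjusted p = 0.0446). Groups were apart at both. Of 22 glycolysis genes 1 fell (4.55%, against 2.96% of all genes): Hk2, the hexokinase that commits glucose to glycolysis, had 388, 823 and 423 CPM in HDAC3f/f and 105, 163 and 61.4 CPM in HDAC3-/- libraries (4.96-fold lower, log2 -2.31 ± 0.47, adjusted p = 0.019), and the median of the list was -0.27.

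**Figure D3:**
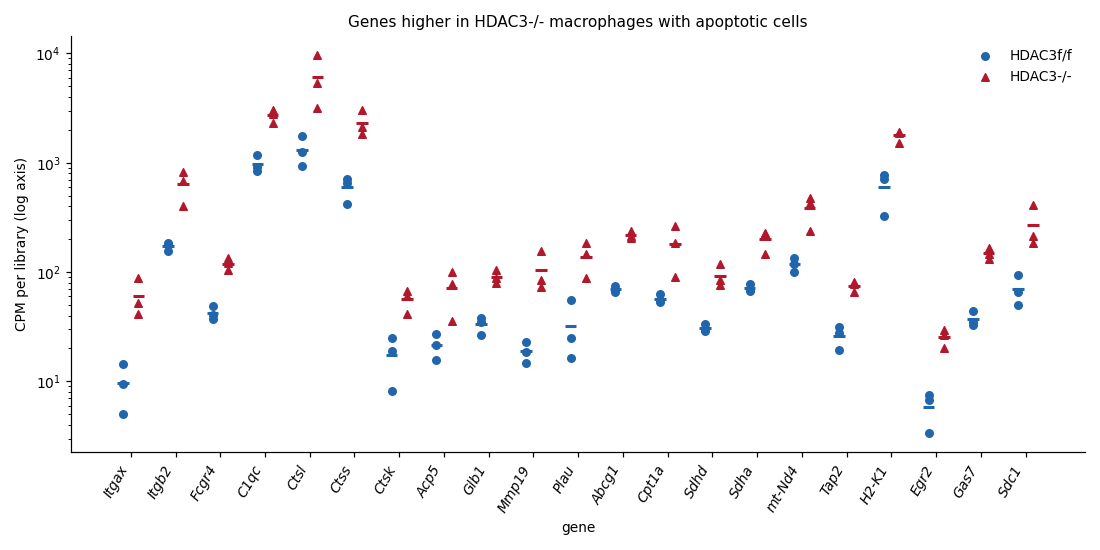
CPM per library (log axis) of genes higher in HDAC3-/- BMDMs with ACs; circles are HDAC3f/f and triangles HDAC3-/- libraries (n = 3 each), and short lines are group means. The groups do not overlap at any of the genes drawn, which were selected from those called.

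Of 160 genes in 7 inflammatory lists, 3 were called, all higher (1.88%, against 0.788% of all genes called higher), and none lower (against 2.96%). None of 33 interferon-stimulated genes was called (median -0.02); the DESeq2 Wald test called none either. None of 19 chemokines (median -0.16), 25 genes of NF-kB and its feedback (-0.36) and 22 genes of Toll-like receptors and adaptors (0.22) was called. The Wald test called 3 of these chemokines (1 higher, 2 lower), 1 NF-kB gene (lower) and none of the Toll-like receptor list, against 11.2% of all genes. With the GC and length offset 5 of the 25 NF-kB genes were called lower (20%, against 7.44% of all genes), and the mean level of that list was lower in each HDAC3-/- library than in each HDAC3f/f library. Ccl9, a chemokine, had 5422, 1067 and 1643 CPM in HDAC3f/f and 474, 948 and 941 CPM in HDAC3-/- libraries (adjusted p = 0.0733), Relb, an NF-kB subunit, had 101, 258 and 154 CPM in HDAC3f/f and 66.3, 49.6 and 84.3 CPM in HDAC3-/- libraries (adjusted p = 0.075), and Oasl2, an interferon-stimulated gene, had 25.1, 63.9 and 46.0 CPM in HDAC3f/f and 119, 51.1 and 121 CPM in HDAC3-/- libraries (adjusted p = 0.139). Ifit2, also interferon-stimulated, had 28.35, 17.5 and 28.5 CPM in HDAC3f/f and 7.70, 17.0 and 10.4 CPM in HDAC3-/- libraries (adjusted p = 0.142 in edgeR). Of the interferon list, 3 were lower without overlap (9.09%, against 14.7% of all genes) and 0 higher (against 13.7%). In simulated data with these libraries' depth and spread the edgeR test recovered 4.48% of 2-fold, 47.8% of 4-fold and 92.4% of 8-fold changes. Single genes did pass. Pdgfb, a growth factor for mesenchymal cells, was the 1 called of 16 cytokines and rose 3.59-fold, and Csf2rb, the shared beta chain of the GM-CSF and IL-3 receptors, was the 1 called of 28 cytokine and chemokine receptors and rose 2.85-fold. Txnip, which binds thioredoxin, was the 1 called of 18 inflammasome and innate sensor genes, with 122, 110.5 and 144 CPM in HDAC3f/f and 334, 405 and 393 CPM in HDAC3-/- libraries (3.00-fold, log2 1.58 ± 0.39, adjusted p = 0.0345).

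Antigen presentation genes moved in both directions. Of 17 genes of the class I pathway 3 rose (17.6%, against 0.788% of all genes) and none fell, with a median of 0.63. No gene of this list was called without HDAC3f/f replicate 1 or 3 or HDAC3-/- replicate 1 or 3. Tap2, a subunit of the peptide transporter, had 19.2, 31.2 and 27.8 CPM in HDAC3f/f and 65.6, 78.2 and 80.9 CPM in HDAC3-/- libraries (2.87-fold, log2 1.52 ± 0.40, adjusted p = 0.0431). Tapbp, which loads peptide onto class I, had 129, 246 and 160.4 CPM in HDAC3f/f and 501, 444 and 587 CPM in HDAC3-/- libraries (2.86-fold, log2 1.52 ± 0.41, adjusted p = 0.0472), and H2-K1, a class I heavy chain whose reads can be shared with related H2 genes, had 323, 770 and 714 CPM in HDAC3f/f and 1884, 1927 and 1527 CPM in HDAC3-/- libraries (2.95-fold, log2 1.56 ± 0.43, adjusted p = 0.0489). HDAC3f/f replicate 1 was the lowest library for all 3. Of 15 MHC class II and co-stimulation genes 1 fell (6.67%, against 2.96% of all genes): Cd86, the co-stimulatory ligand of CD28, had 354, 124 and 89.5 CPM in HDAC3f/f and 51.2, 31.5 and 18.1 CPM in HDAC3-/- libraries (5.62-fold lower, log2 -2.49 ± 0.54, adjusted p = 0.0262).

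Among matrix genes, 3 of 24 proteases and inhibitors rose (12.5%, against 0.788% of all genes), none fell, and the median was 0.21 (0.52 with the offset). The 3 were Mmp19, Plau and Adam8, a membrane metalloproteinase of myeloid cells, which had 255, 379 and 351 CPM in HDAC3f/f and 1073, 561.8 and 1407 CPM in HDAC3-/- libraries (3.09-fold, log2 1.63 ± 0.43, adjusted p = 0.0456). All 21 matrix proteins tested were fitted higher (median 0.63), beside 6116 of all 12304 genes. Without overlap 5 were higher (23.8%, against 13.7% of all genes) and 0 lower (against 14.7%). The 1 called (4.76%, against 0.788% of all genes) was Emilin2, an elastin-associated glycoprotein, with 27.1, 35.3 and 29.9 CPM in HDAC3f/f and 100.4, 51.5 and 109 CPM in HDAC3-/- libraries (2.83-fold, adjusted p = 0.0484). Fibroblast and stromal markers, which include collagens, summed to 9.34, 235 and 113 CPM in HDAC3f/f and 254, 109 and 88.2 CPM in HDAC3-/- libraries. HDAC3f/f replicate 1 was far below the others, and without it the median of the matrix list was 0.12. The part of stromal cells in the matrix result was not tested.

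Stress genes gave single calls in both directions. Of 28 genes of the unfolded protein and integrated stress responses, 22 were fitted higher (median 0.63) while the 1 called gene fell: Chac1, which degrades glutathione, had 9.23, 8.07 and 5.27 CPM in HDAC3f/f and 1.04, 1.13 and 2.65 CPM in HDAC3-/- libraries (4.71-fold lower, log2 -2.23 ± 0.55, adjusted p = 0.0337). Without overlap 11 of the 28 were higher (39.3%, against 13.7% of all genes) and 2 lower (7.14%, against 14.7%). The mean level of this list was higher in each HDAC3-/- library than in each HDAC3f/f library. Bag3, a co-chaperone of HSP70, was the 1 called of 16 heat shock genes and had 19.0, 38.9 and 31.3 CPM in HDAC3f/f and 85.8, 60.3 and 129 CPM in HDAC3-/- libraries (3.07-fold higher, log2 1.62 ± 0.43, adjusted p = 0.045). Fas, the death receptor, was the 1 called of 19 p53 targets (median -0.49) and had 26.9, 7.58 and 10.7 CPM in HDAC3f/f and 5.38, 3.53 and 2.92 CPM in HDAC3-/- libraries (3.78-fold lower, log2 -1.92 ± 0.52, adjusted p = 0.0472). Xiap, an inhibitor of caspases, was the 1 called of 29 apoptosis genes (median 0.02) and had 42.0, 18.3 and 23.3 CPM in HDAC3f/f and 4.03, 13.4 and 5.64 CPM in HDAC3-/- libraries (3.62-fold lower, log2 -1.86 ± 0.51, adjusted p = 0.0476). None of 25 NRF2 genes (median 0.22) and 18 iron and heme genes (0.19) was called. The calls of Chac1, Fas and Xiap were 3.57%, 5.26% and 3.45% of their lists, against 2.96% of all genes called lower. Bag3 was 6.25% of its list, against 0.788% of all genes called higher. The mean level of the p53 targets was lower in each HDAC3-/- library than in each HDAC3f/f library.

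Among 12 genes of the HDAC3 corepressor complexes, 20 other histone deacetylases, 19 acetyltransferases and readers, 29 genes of Polycomb, methylation and remodelling, 16 clock genes and 24 macrophage lineage factors, none of the 120 genes passed the edgeR test (0%, against 3.75% of all genes). The DESeq2 Wald test, which called 11.2% of all genes, called none of the first 3 lists, 3 of the fourth, 3 clock genes and 2 lineage factors. Rxrb, the retinoid X receptor beta that partners other nuclear receptors, was the 1 called of 19 nuclear receptors (5.26%, against 2.96% of all genes called lower), with 250.4, 362 and 345 CPM in HDAC3f/f and 90.0, 63.9 and 159 CPM in HDAC3-/- libraries (3.06-fold lower, log2 -1.61 ± 0.43, adjusted p = 0.0456). Maf, a lineage factor of macrophages, had 674, 499 and 374 CPM in HDAC3f/f and 61.8, 279 and 118 CPM in HDAC3-/- libraries (adjusted p = 0.0546), and S1pr1, a lipid receptor, had 43.2, 40.4 and 45.5 CPM in HDAC3f/f and 159, 99.9 and 82.0 CPM in HDAC3-/- libraries (adjusted p = 0.0543). Egr2 was the 1 called of 18 immediate early genes (5.56%, against 0.788% of all genes called higher), whose median was 0.47. Of 26 S phase genes 1 fell (3.85%, near the 2.96% of all genes). It was Rfc4, a subunit of the clamp loader (3.33-fold), against a list median of 0.52. Of 24 mitosis genes none was called (median 0.36).

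**Figure D4:**
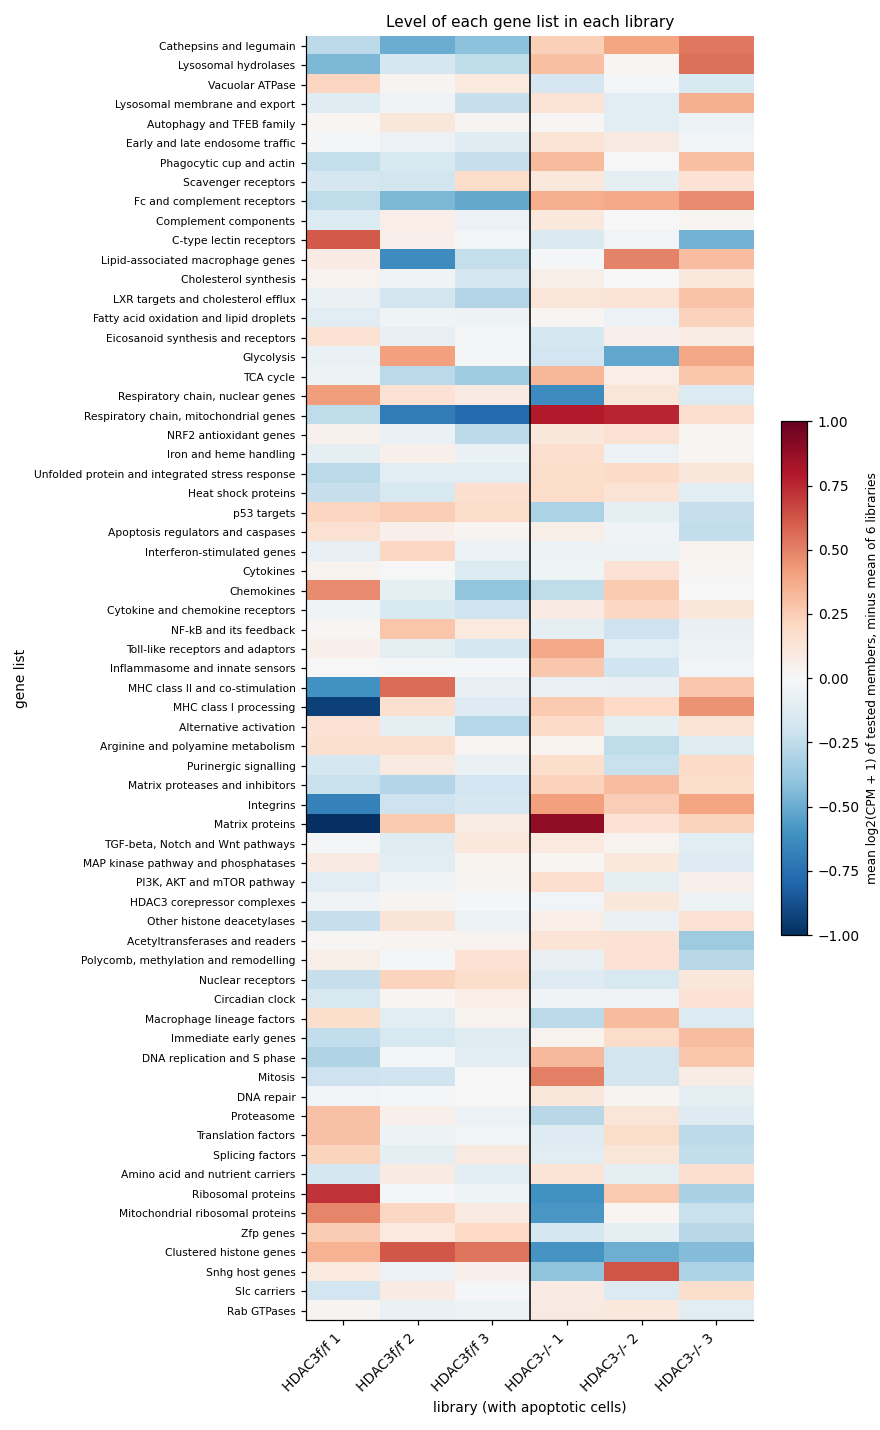
Mean log2(CPM + 1) of the tested members of each gene list in each library (columns), minus the mean over the 6 libraries; red is above and blue below that mean, with the colour capped at 1. All HDAC3-/- libraries lie above all HDAC3f/f libraries in 13 lists, such as the cathepsins (0.241 to 0.531 against -0.499 to -0.262), and below them in 8, such as the clustered histone genes (-0.586 to -0.436 against 0.349 to 0.623).

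Among called coding genes with separate groups and a mean of at least 5 CPM in the higher group, the largest decreases outside the families below were in genes of varied function. Pdcd10, the adaptor mutated in cerebral cavernous malformation, fell 11.8-fold, with 268, 36.0 and 117 CPM in HDAC3f/f and 6.00, 16.2 and 13.3 CPM in HDAC3-/- libraries (log2 -3.56 ± 0.66, adjusted p = 0.0212). Fastkd2, a mitochondrial RNA-binding protein, had 147, 86.6 and 73.2 CPM in HDAC3f/f and 18.4, 11.4 and 15.8 CPM in HDAC3-/- libraries (6.72-fold lower, log2 -2.75 ± 0.44, adjusted p = 0.01), and Arhgap15, a Rac GTPase-activating protein, had 16.8, 12.1 and 20.2 CPM in HDAC3f/f and 2.25, 3.17 and 1.86 CPM in HDAC3-/- libraries (6.71-fold lower, log2 -2.75 ± 0.47, adjusted p = 0.0153). Pdcd10 varied between 36.0 and 268 CPM in the controls, while Fastkd2 and Arhgap15 were tighter. Gnb3, Teddm2, Trdmt1, Cfap97 and 2010315B03Rik fell 7.54-, 7.42-, 7.39-, 6.28- and 8.98-fold. By gene length, the shortest quartile held 191 called genes of 3079, 20 higher and 171 lower (median -0.38), and the longest held 61 of 3076, 21 higher and 40 lower (median 0.15). By GC content, the lowest quartile (28.65% to 45.67%) held 2 genes called higher and 120 lower (median -0.42), the highest quartile (54.85% to 74.68%) held 34 higher and 165 lower (-0.29), and the 2 middle quartiles had medians of 0.31 and 0.33. The part of length and GC content in the lists below was not tested beyond an offset for both. Its values are given for the histone, ribosomal protein, translation factor, proteasome, Zfp and Slc lists.

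Clustered histone genes fell furthest. Of 35 tested among 65, 10 fell (28.6%, against 2.96% of all genes) and none rose, the median was -1.96 (-1.16 with an offset for gene length and GC, where 10 also fell, against 7.44% of all genes), and 27 were lower without overlap of the groups (77.1%, against 14.7% of all genes). Histone H4, a core protein of the nucleosome made from many near-identical gene copies, supplied 8 of the 10. Hist1h4c had 12.7, 9.88 and 8.40 CPM in HDAC3f/f and 1.43, 1.45 and 1.26 CPM in HDAC3-/- libraries (7.41-fold lower, log2 -2.89 ± 0.49, adjusted p = 0.0153). Hist1h4h had 18.1, 20.8 and 16.2 CPM in HDAC3f/f and 2.83, 4.12 and 3.98 CPM in HDAC3-/- libraries (5.04-fold lower, log2 -2.33 ± 0.45, adjusted p = 0.0153), and Hist1h4d had 12.9, 11.9 and 14.7 CPM in HDAC3f/f and 2.59, 2.63 and 2.72 CPM in HDAC3-/- libraries (4.96-fold lower, log2 -2.31 ± 0.45, adjusted p = 0.0165). The replicates of Hist1h4d lay within 1 CPM of one another in HDAC3-/-. Hist4h4, Hist1h4m and Hist2h4 fell 10.1-, 8.41- and 6.34-fold. The other 4 called were Hist1h4a, Hist1h4n and the H2A genes Hist1h2ao and Hist1h2ap. Reads of such copies can be split between genes by the counting, so the single values are uncertain. Most histone transcripts of these clusters end in a stem-loop instead of a poly(A) tail, and the RNA selection of the libraries was not given in the sources used here.

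Genes of protein synthesis held calls mostly in the lower direction, at a share near that of all genes (2.96%) for ribosomal proteins and above it for mitochondrial ribosomal proteins and translation factors. With the GC and length offset the shares called lower were 15.5%, 21.3% and 20.8%, against 7.44% of all genes. Of 84 ribosomal protein genes 3 fell (3.57%) and none rose, the median was -0.46 and 56 were fitted lower; 22 were lower without overlap (26.2%, against 14.7% of all genes), and with the offset 1 rose and 13 fell (median -0.53). Without HDAC3f/f replicate 1 the median was -0.18 and 1 gene was called. Rps28 had 2107, 1864 and 1538 CPM in HDAC3f/f and 350.4, 629.9 and 649 CPM in HDAC3-/- libraries (3.38-fold lower, log2 -1.76 ± 0.42, adjusted p = 0.0311), Rpl10a had 2354, 1852 and 1725 CPM in HDAC3f/f and 453, 558 and 885 CPM in HDAC3-/- libraries (3.13-fold lower, log2 -1.65 ± 0.42, adjusted p = 0.0411), and Rps7 had 2716, 626 and 969 CPM in HDAC3f/f and 327, 557 and 221 CPM in HDAC3-/- libraries (3.90-fold lower, log2 -1.96 ± 0.54, adjusted p = 0.0494). Replicate 1 of HDAC3f/f had the highest ribosomal protein share, 10.3% of counts against 5.91% and 6.57% in its group and 3.93%, 6.18% and 3.77% in HDAC3-/-, and the groups overlapped in this share. Of 75 mitochondrial ribosomal protein genes, 4 fell (5.33%) and none rose (median -0.52); with the offset 2 rose and 16 fell (median -0.46). Mrpl15 had 205, 144 and 137 CPM in HDAC3f/f and 37.1, 40.6 and 53.9 CPM in HDAC3-/- libraries (3.69-fold lower, log2 -1.88 ± 0.40, adjusted p = 0.0235), and Mrps16 had 89.0, 89.7 and 89.9 CPM in HDAC3f/f and 15.2, 29.3 and 35.5 CPM in HDAC3-/- libraries (3.36-fold lower, log2 -1.75 ± 0.42, adjusted p = 0.0311). Mrpl14 and Mrpl22 fell 3.48- and 3.07-fold. Of 24 translation factors 3 fell (12.5%), none rose, and the median was 0.12; with the offset 2 rose and 5 fell. Eif6, which keeps ribosomal subunits apart, had 920.3, 1442 and 1072 CPM in HDAC3f/f and 221, 237 and 464 CPM in HDAC3-/- libraries (3.73-fold lower, log2 -1.90 ± 0.44, adjusted p = 0.0289), Eif4a2, an RNA helicase of initiation, had 273, 114 and 171 CPM in HDAC3f/f and 43.5, 52.8 and 46.2 CPM in HDAC3-/- libraries (3.91-fold lower, log2 -1.97 ± 0.42, adjusted p = 0.024), and Eif2s1, the alpha subunit of eIF2, fell 3.79-fold. Of 30 proteasome genes, the core subunits Psma6 and Psmb5 fell 3.21- and 2.82-fold and the regulatory subunit Psmd2 rose 2.80-fold (list median -0.18). These were 6.67% lower and 3.33% higher, against 2.96% and 0.788% of all genes. Without overlap 9 were lower (30%, against 14.7% of all genes) and 3 higher (10%, against 13.7%). With the offset 7 fell (23.3%, against 7.44% of all genes) and 3 rose (10%, against 3.07%).

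Zfp genes, which mostly code for zinc finger transcription factors, fell in larger number than any other family of those listed. Of 270 tested, 20 fell (7.41%, against 2.96% of all genes) and none rose, the median was -0.44 and 182 were fitted lower. With the GC and length offset 19 fell and 2 rose (7.04% lower, against 7.44% of all genes; median -0.39), so that the share was then that of all genes, and without HDAC3-/- replicate 3 the number that fell was 8 (2.84%, against 2.26%). Zfp771 had 66.7, 126 and 99.6 CPM in HDAC3f/f and 18.5, 24.2 and 23.7 CPM in HDAC3-/- libraries (4.40-fold lower, log2 -2.14 ± 0.41, adjusted p = 0.0153), Zfp358 had 138, 212 and 165 CPM in HDAC3f/f and 31.3, 31.1 and 59.1 CPM in HDAC3-/- libraries (4.23-fold lower, log2 -2.08 ± 0.42, adjusted p = 0.019), and Zfp644 had 29.2, 51.3 and 42.0 CPM in HDAC3f/f and 3.02, 12.6 and 4.64 CPM in HDAC3-/- libraries (6.06-fold lower, log2 -2.60 ± 0.52, adjusted p = 0.0189). Levels of all 3 were without overlap between genotypes. Zfp518a, Zfp991 and Zfp729b, at low levels, fell 10.3-, 6.98- and 7.52-fold. Among 177 Slc carriers 3 rose (1.69%, against 0.788% of all genes) and 1 fell (0.565%, against 2.96%). With the offset 5 rose (2.82%, against 3.07% of all genes) and 8 fell (4.52%, against 7.44%). Slc45a3, the carrier with the smallest p and the highest fitted log2 fold change of all genes tested, lay near the limit of detection, with 0, 1 and 1 counts in HDAC3f/f and 25 counts in each HDAC3-/- library (0, 0.0696 and 0.0667 CPM in HDAC3f/f and 0.968, 1.13 and 1.66 CPM in HDAC3-/- libraries; log2 4.43 ± 1.02, adjusted p = 0.0291), so that the size of its rise is uncertain. Slc28a2, a nucleoside carrier, rose 3.52-fold and Slc18a1 fell 5.04-fold. Of 45 Rab GTPases 1 fell (2.22%, below the 2.96% of all genes), Rab40c (3.28-fold).

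**Figure D5:**
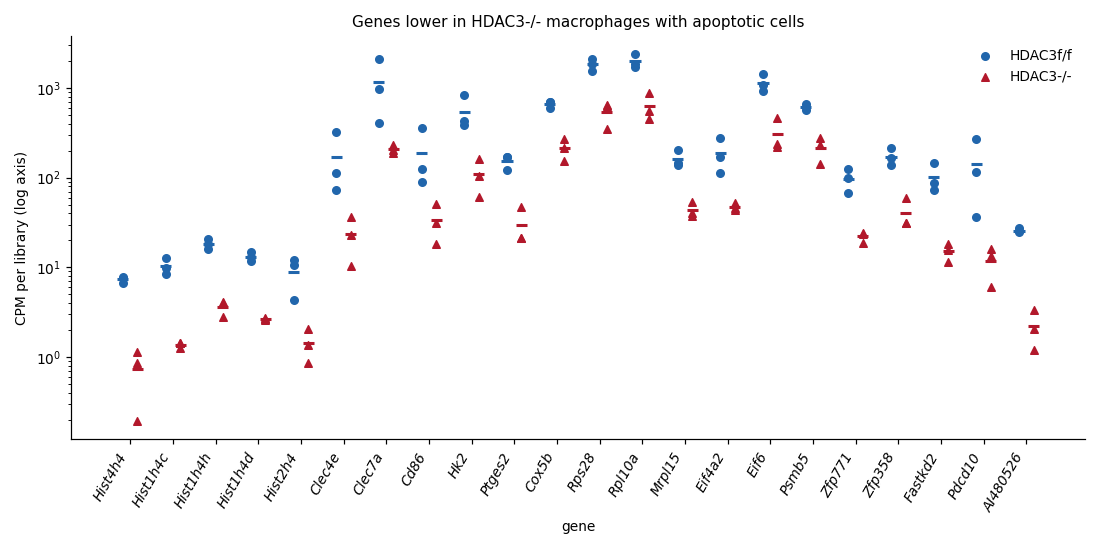
CPM per library (log axis) of genes lower in HDAC3-/- BMDMs with ACs; circles are HDAC3f/f and triangles HDAC3-/- libraries (n = 3 each), and short lines are group means. The groups do not overlap at any of the genes drawn, which were selected from those called.

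Noncoding transcripts gave calls in 1 direction as reported, at shares that differed between classes. Of 674 long noncoding genes 56 (8.31%) fell and none rose (median -0.82), of 52 small RNA genes 18 (34.6%) fell and none rose (median -1.66), and of 349 pseudogenes 11 (3.15%) fell and none rose, beside 2.96% of all genes called lower. With the GC and length offset 75 long noncoding genes fell (11.1%, against 7.44% of all genes) and 4 rose, whereas of the small RNA genes 3 fell (5.77%) and 4 rose, and of the pseudogenes 13 fell (3.72%) and 9 rose. Without HDAC3-/- replicate 3 the shares called lower were 3.17% of long noncoding and 12.7% of small RNA genes, against 2.26% of all genes. AI480526, a lincRNA, had 27.2, 25.1 and 24.8 CPM in HDAC3f/f and 1.20, 2.08 and 3.32 CPM in HDAC3-/- libraries (11.8-fold lower, log2 -3.56 ± 0.49, adjusted p = 0.00351), and Gm4673, annotated as antisense, had 54.0, 89.0 and 66.5 CPM in HDAC3f/f and 4.88, 11.1 and 5.71 CPM in HDAC3-/- libraries (9.67-fold lower, log2 -3.27 ± 0.46, adjusted p = 0.00351). Gm12977, 9430060I03Rik, Gm10138 and Zmiz1os1, also annotated as antisense, fell 15.4-, 14.4-, 7.40- and 7.34-fold. The counting's use of strand was not given in the sources used here, so that reads of antisense genes and their partners cannot be told apart. Gm26917, a lincRNA, and Rn7sk, the 7SK RNA that holds back transcription elongation, were chosen after their values were seen: Gm26917 had 14590, 14670 and 12700 CPM in HDAC3f/f and 1561, 1901 and 3536 CPM in HDAC3-/- libraries (adjusted p = 0.0153 in edgeR) and Rn7sk had 319, 224 and 158 CPM in HDAC3f/f and 57.3, 47.2 and 108 CPM in HDAC3-/- libraries (adjusted p = 0.0413). Malat1, also chosen so, overlapped between the genotypes, with 955, 199.8 and 860 CPM in HDAC3f/f and 109, 2451 and 223 CPM in HDAC3-/- libraries. Gm42418, also chosen so, had 22560, 26090 and 11230 CPM in HDAC3f/f and 31390, 6040 and 51310 CPM in HDAC3-/- libraries and overlapped as well (log2 0.57, adjusted p = 0.589).

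Markers of other cell types were looked at as lists. The osteoclast markers, described with the cathepsins, had a summed level, led by Mmp9, of 130 to 299 CPM in HDAC3f/f and 285 to 452 CPM in HDAC3-/- libraries, while Calcr, the calcitonin receptor, was at 0 throughout. Elane, neutrophil elastase, was the 1 called, lower, of 13 granulocyte markers tested (7.69%, against 2.96% of all genes). It had 20.1, 95.8 and 89.0 CPM in HDAC3f/f and 10.8, 8.34 and 23.8 CPM in HDAC3-/- libraries, levels that overlapped. The summed granulocyte level was 450 to 1215 CPM in HDAC3f/f and 550 to 872 CPM in HDAC3-/- libraries. The erythroid marker Hbb-bh1 was at 0 in every library, and the erythroid list summed to 4.31 to 52.0 CPM in HDAC3f/f and 5.30 to 23.2 CPM in HDAC3-/- libraries. Human K562 RNA was not analysed here. The part of other cells in the results was not tested.

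Whether the genotype difference depended on the treatment was tested with interaction terms. With ACs against NACs, 10 of 13076 genes (0.0765%) were called (2620, 20%, at an unadjusted p under 0.05), and 7 of the 10 were also among the 461. With ACs against no treatment none of 13225 genes was called by edgeR, 3187 (24.1%) had an unadjusted p under 0.05, and the DESeq2 Wald test called 1225. The CPM of this and the next paragraph were scaled over all 18 libraries and so differ slightly from those above. Itgax averaged (SD, n = 3, HDAC3f/f before HDAC3-/-) 9.17 ± 4.70 and 59.9 ± 27.0 CPM with ACs, 26.6 ± 20.8 and 10.8 ± 1.15 with NACs, and 6.76 ± 3.10 and 59.4 ± 68.8 untreated. Its interaction with NACs was log2 4.00 ± 0.70, adjusted p = 0.0303. Stmn1, which destabilises microtubules, averaged 16.2 ± 0.820 and 46.8 ± 4.04 CPM with ACs, 31.3 ± 3.76 and 15.5 ± 2.58 with NACs, and 15.8 ± 6.36 and 37.0 ± 7.97 untreated (log2 2.54 ± 0.44, adjusted p = 0.0303). The genotypes differed in opposite directions with ACs and NACs for both, and in the direction of ACs when untreated, where Itgax overlapped (4.11 to 10.2 CPM in HDAC3f/f, 9.06 to 137.7 CPM in HDAC3-/-). Samd9l, an interferon-induced growth restraint gene, averaged 13.9 ± 3.84 and 2.68 ± 0.786 CPM with ACs, 7.19 ± 4.35 and 23.6 ± 5.98 with NACs, and 20.4 ± 3.13 and 3.96 ± 2.23 untreated (log2 -4.10 ± 0.61, adjusted p = 0.0114). Xiap averaged 26.4 ± 11.8 and 7.39 ± 4.44 CPM with ACs, 13.0 ± 5.13 and 38.4 ± 10.8 with NACs, and 38.5 ± 5.72 and 10.3 ± 4.78 untreated (log2 -3.40 ± 0.64, adjusted p = 0.0422). The order was reversed with NACs for these too.

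Levels of the called genes in the other libraries were compared without a test. Replicate 1 of the untreated HDAC3-/- libraries stood apart, with 4704491 counts against 26421267 and 25379897 in its group and 10.8% of counts in long noncoding genes against 1.24% and 1.79%, and the untreated values are given with and without it. Of the 97 genes higher with ACs, 56 were also higher in HDAC3-/- with NACs (median log2 difference 0.0859) and 82 when untreated (0.684; 95 and 1.18 without that library), where 5987 and 6372 of all 12304 genes tested were higher. Of the 364 lower with ACs, 263 were also lower with NACs (-0.495) and 172 when untreated (0.0752; 232 and -0.441 without it), where 6317 and 5932 of all genes were lower. The cells of the other treatments come from the same genotypes, and whether the same 3 animals gave them is not stated by the labels. Lysosomal hydrolases had a median log2 difference of 0.82 with ACs, -0.20 with NACs and 0.92 untreated (1.23 without that library), and cathepsins 0.75, 0.07 and 0.42 (0.79 without it). Clustered histone genes had -0.97, -0.79 and 0.10 (-0.25 without it), and mitochondrial ribosomal proteins -0.49, -0.24 and 0.11 (-0.00031 without it). These medians are on the log2(CPM + 1) scale, which understates the change of low genes.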

How the data were processed

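RNA of BMDMs was sequenced as paired-end libraries made with a NEBNext Ultra II kit. Per the submitters' processing notes, the authors trimmed reads with Trimmomatic 0.36, aligned them to GRCm38 with STAR 2.5.2b and counted them per gene with featureCounts of Subread 1.5.2. The deposited values are raw counts for 49315 genes, with no normalization. Groups came from the sample labels, 3 biological replicates each. Of the genes, 48970 were in GENCODE M21 and 44772 had the same coordinates on GRCm38.

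Counts of the 6 libraries with ACs (9385094 to 22664522 per library) were analysed in R 4.3.3 with edgeR 4.0.16: filterByExpr (minimum count 10, minimum total 15), TMM scaling, robust glmQLFit and glmQLFTest, and Benjamini-Hochberg adjustment over all genes tested (threshold 0.05). Interaction terms were fitted on 12 libraries. CPM are counts scaled by TMM totals. Alternatives used DESeq2 1.42.0 and limma 3.58.1 (voom), other scalings and filters, all 18 libraries, an offset for GC content and length (mgcv 1.9.3), a replicate block and leaving out each library. On simulated data (12304 genes, 200 changed) edgeR made 9 false calls, 8.57% of its calls. The p-values set the difference between groups against the spread of these samples within groups.

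The members and lists were chosen with earlier results of these data known. Named genes were, outside the study's 25 efferocytosis genes: the 15 largest called rises and 15 largest falls among coding genes without overlap and with a mean of at least 5 CPM in the higher group; up to 5 called genes per list by p, or up to 2 as values where none was called; Hdac3, Lyz2 and the highest marker of each marker list; up to 8 called interaction genes; and up to 6 called noncoding genes. These rules gave the 100 called genes counted over the settings. Called genes named outside the rules were Hist1h4a, Hist1h4n, Hist1h2ao, Hist1h2ap, Elane, Gm26917 and Rn7sk, and some genes not called, such as further markers, Malat1 and Gm42418, were named too. Lists are described by counts and medians, with no set test. Some genes of the lists are counted but not reported here by name.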

Additional observations from a re-analysis of the deposited data

Results flagged for a closer look

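At 7 genes called with ACs the genotype difference itself differed between ACs and NACs by the interaction test (difference with ACs minus difference with NACs, n = 3 per group). The interaction was positive for Itgax (log2 4.00 ± 0.70, adjusted p = 0.0303), Sdc1 (3.31 ± 0.58, adjusted p = 0.0303), Folr2, a folate receptor of macrophages (3.28 ± 0.60, adjusted p = 0.033), and Stmn1 (2.54 ± 0.44, adjusted p = 0.0303). It was negative for Samd9l (-4.10 ± 0.61, adjusted p = 0.0114), the pseudogene Gm8995 (-4.47 ± 0.68, adjusted p = 0.0114) and Xiap (-3.40 ± 0.64, adjusted p = 0.0422). Folr2 averaged 137 ± 55.3 and 509 ± 218 CPM with ACs, 446 ± 184 and 170 ± 38.5 with NACs, and 136 ± 88.1 and 456 ± 473 untreated. Sdc1 averaged 66.5 ± 23.1 and 266 ± 131 CPM with ACs, 156 ± 72.8 and 63.3 ± 10.8 with NACs, and 53.4 ± 20.8 and 223 ± 194 untreated, and Gm8995 averaged 21.2 ± 11.0 and 4.84 ± 1.97 CPM with ACs, 7.96 ± 2.47 and 40.3 ± 16.3 with NACs, and 35.2 ± 12.6 and 9.71 ± 4.17 untreated. All 7 kept the call with DESeq2 size factors, the DESeq2 Wald test and no filter, 6 with limma-voom (Itgax was lost) and with the filter of 10 counts per library (Xiap was lost), and 5 with the replicate block (Stmn1 and Xiap were lost). With library totals alone and with all 18 libraries only Samd9l and Gm8995 kept it, so that the 4 positive interactions and Xiap were lost. When 1 of the 12 libraries was left out, Samd9l and Gm8995 stayed called in 8 of the 12 fits, Stmn1 in 3 and the other 4 genes in 4. In no fit without HDAC3-/- AC replicate 1 was any gene called.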

How the results depend on the processing

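The number of genes called with ACs, 461 (97 higher, 364 lower), was 497 with DESeq2 size factors, 383 (58 higher) with library totals alone, 404 with limma-voom, 658 (203 higher) with all 18 libraries, 728 (265 higher) with no filter, 788 (187 higher, 601 lower) with at least 10 counts in every library, 1293 (378 higher, 915 lower) with an offset for gene length and GC, and 1373 (509 higher, 864 lower) with the DESeq2 Wald test. The share of higher calls was 21.0% as reported, 36.4% with no filter and 37.1% with the Wald test. With 1 library left out it ranged from 0 to 1693, the higher calls from 0 to 737 and the lower from 0 to 956: 0 without HDAC3-/- replicate 1, 1693 without HDAC3-/- replicate 2 and 305 without HDAC3f/f replicate 3; higher calls were 40, 60 and 40 without HDAC3f/f replicates 1, 2 and 3, and 54 without HDAC3-/- replicate 3. Equal replicate numbers showed no pairing between HDAC3f/f and HDAC3-/- libraries with ACs (correlation of deviations -0.117, -0.391 and 0.0861). Pairing of the treatments within a genotype was not tested. With the replicate block 373 genes were called, 42 of them higher, and 607 with the block and the offset.

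The interaction with NACs (10 genes) gave 38 with DESeq2 size factors, 3 with library totals, 3 with all 18 libraries, 7 with voom, 537 with no filter and 762 with the Wald test; leaving out 1 library gave 0 to 826 genes (0 without replicates 1 or 3 of HDAC3f/f NACs, replicate 3 of HDAC3-/- NACs or replicate 1 of HDAC3-/- ACs; 826 without HDAC3-/- AC replicate 2, 782 without HDAC3f/f NAC replicate 2, 228 without HDAC3f/f AC replicate 2). The interaction with no treatment (0 genes) gave 140 with no filter and 1225 with the Wald test, and 0 to 1100 with 1 library left out (471 without HDAC3f/f untreated replicate 3, 1100 without HDAC3-/- AC replicate 3). The causes were not tested. Hdac3, not called, ranged from -0.84 without HDAC3-/- replicate 1 to 0.28 without HDAC3f/f replicate 2 (0.18 without HDAC3-/- replicate 2). Of the 100 called genes named by the rules above, none changed direction where it was tested. Called genes named outside the rules were not counted. The call was kept by 62, 75 and 57 without HDAC3f/f replicates 1, 2 and 3, by 0, 98 and 54 without HDAC3-/- replicates 1, 2 and 3, by 71 with the replicate block and by 95 with the offset (all but Slc37a2, Myh9, Fas, Zfp518a and Gm8995). The 16 lists with a median of at least 0.5 in size kept its sign under every alternative. Medians of at least 0.5 in size that moved by over 1.5 times and are not given in the report were those of LXR targets (0.54 as reported; 0.83 without HDAC3f/f replicate 2, 0.86 and 0.28 without HDAC3-/- replicates 2 and 3), S phase genes (0.52; 0.26 with the offset, 0.78 without HDAC3-/- replicate 2), matrix proteins (0.63; 0.99 without HDAC3f/f replicate 2, 0.29 without HDAC3-/- replicate 1), nuclear genes of the respiratory chain (-0.50; -0.24 without HDAC3-/- replicate 1) and mitochondrial ribosomal proteins (-0.52; -0.31 without HDAC3f/f replicate 1). Leaving out the untreated HDAC3-/- replicate 1 was chosen after seeing the data.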
